A study of Ovis aries with 56 samples.

Results

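The heat shock chaperones measured in the sheep amygdala were the inducible heat shock protein HSPA1A, the endoplasmic reticulum chaperone HSPA5 and the cytosolic chaperone HSP90AA1. They were found as all non-control probes whose annotation names HSPA1A (HSP70) or HSPA5, or whose gene name starts with HSP. The rule gave 5 probes of 15008 distinct probes on the array, for 3 of 827 named genes. HSPA1A, which the array lists under its older name HSP70.1, had the probes A_70_P031192 and A_70_P031191. HSPA5 had the probes A_70_P016527 and A_70_P016526, and HSP90AA1 had the single probe A_70_P014626. Of the 2 probes of a gene, the one named first is the brighter in the authors' deposited mean brightness, and the values below are those of that probe unless the dimmer one is named. HSP70 genes exist in near-identical copies, and which of these copies the HSPA1A probes read was not tested.

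The study asked how blocking puberty with an agonist of gonadotropin-releasing hormone (GnRHa) affects gene expression in the amygdala of male and female sheep. RNA of the left and right amygdala of Scottish Mule Texel Cross sheep, all 50 weeks old, was compared on 2-colour arrays with a pool of amygdala RNA of both sexes and sides. Each pair of same-sex twins had 1 untreated control and 1 twin that received implants of 3.6 mg goserelin acetate, renewed each 4 weeks, beginning at 8 weeks of age in the males and at 28 weeks in the females. The labels give 8 groups of 7 samples (each sex, treatment and side), from 30 animals in 15 twin pairs. The age at the first implant and the length of treatment differ between the sexes, so sex and timing cannot be told apart in any difference between the sexes of the GnRHa effect. The controls carried no sham implant that the labels mention, and the pool shares the tissue of every sample, so the tissue label could not be checked against markers of other tissues.

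Heat shock proteins fold newly made proteins and hold damaged ones until they are refolded or removed. HSPA1A is made in the cytosol under the transcription factor HSF1 when cells are stressed, and HSP90AA1 keeps kinases and steroid hormone receptors, among them the glucocorticoid receptor, in a form that can bind their ligand. HSPA5, also called BiP, binds unfolded proteins in the lumen of the endoplasmic reticulum and holds the sensors of the unfolded protein response inactive.

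Each value is a log2 ratio of the sample over the pool, so that 0 is the level of the pool and 1 is a doubling. Of the 56 arrays, 15 were left out because their spike-in controls were unlike those of the rest (absolute slope at most 0.208, against 1.13 to 1.26 in the 41 arrays used), and 3 of the 41 had a negative slope and were multiplied by -1. These 3 were the left and right arrays of male GnRHa replicate 6, which come from 1 animal, and female control right replicate 7. The 41 arrays came from 25 animals, of which 16 had both sides. They left 9 male control, 12 male GnRHa, 10 female control and 10 female GnRHa arrays. All 5 heat shock probes had a value on every 1 of these 41 arrays, so no filter on missing values removed any of them. The differences below come from limma with a mean for each group, a term for the dye and the animal as a random block, over 12930 probes, and a probe counts as called where its p adjusted over all of these probes was below 0.05. Fewer cells of a type and less RNA per cell cannot be told apart in such tissue samples.

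HSPA1A was the heat shock gene with the widest range, from -1.10 to 1.24 over the 41 arrays. In the left amygdala of control males its log2 ratios were -1.10, -1.06, -0.45, 0.12 and 0.19, and in the right -0.90, -0.83, -0.22 and 0.28. In the left amygdala of control females they were -0.24, 0.47, 0.50, 0.68 and 1.24, and in the right -0.27, 0.02, 0.60, 0.97 and 1.11. All 10 female control arrays lay above the mean of the male controls, and 7 of them lay above every male control array, while the ranges of the sexes overlapped. The share of all probes with such counts is not given here. The means were 0.51 ± 0.53 (SD, n = 10 arrays) in control females and -0.44 ± 0.55 (SD, n = 9 arrays) in control males.

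In the treated groups the means of HSPA1A lay between -0.11 and 0.38. In treated females the left amygdala gave 0.02, 0.15, 0.46, 0.61 and 0.63 and the right -0.10, -0.06, 0.48, 0.57 and 0.58. In treated males the left amygdala ran from -0.60 to 0.42 with a median of -0.05, and the right from -0.40 to 0.78 with a median of 0.42. The means were 0.34 ± 0.30 (SD, n = 10 arrays) in treated females and 0.09 ± 0.46 (SD, n = 12 arrays) in treated males, whose ranges overlapped. By group mean the 8 groups ran from female control left (0.53) through female control right, female GnRHa left, female GnRHa right and male GnRHa right (0.29) to male GnRHa left (-0.11), male control right (-0.42) and male control left (-0.46). None of the 7 steps between neighbours in this order was larger than the larger SD of the neighbours. On the dimmer probe 1 step was, from male GnRHa left (0.09) to male control right (-0.38). These means are not adjusted for dye, which goes largely with side. Adjusted for dye, the brighter probe was highest in female control right (0.60), with female control left at 0.41. It stayed lowest in male control left (-0.53).

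**Figure D1:**
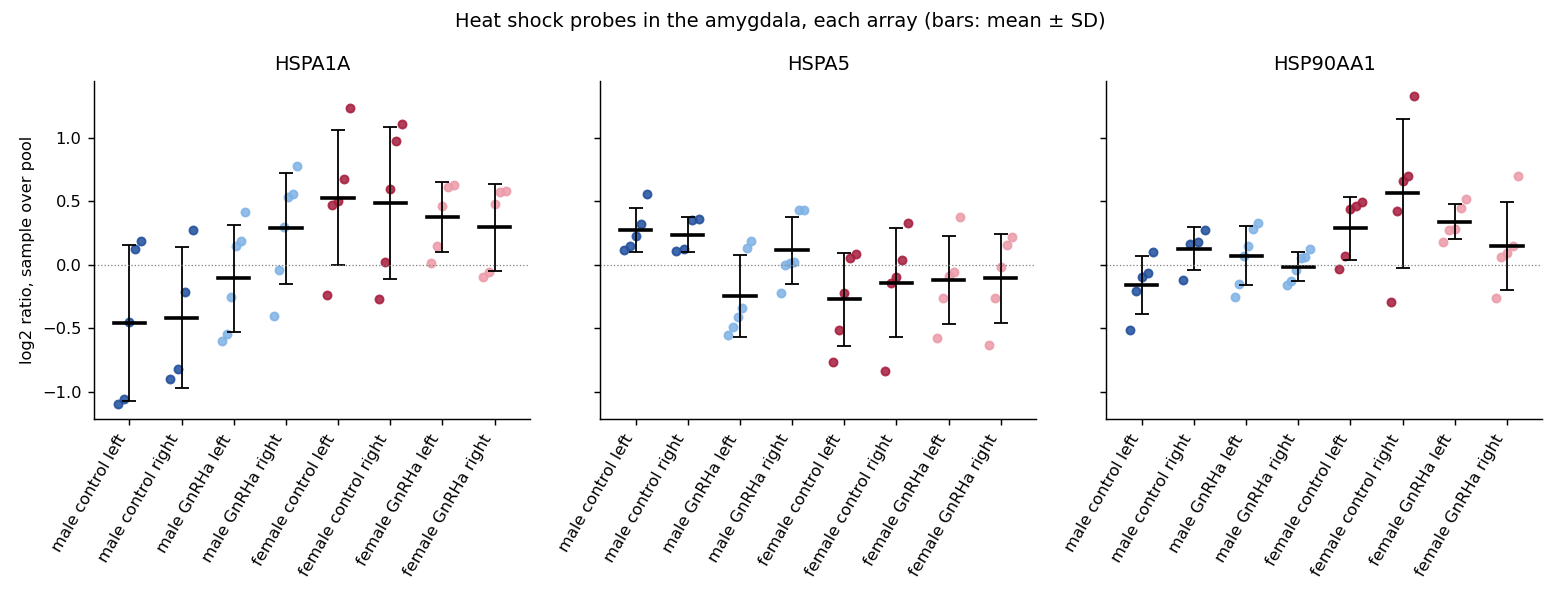
Log2 ratio of sample over pool on each of the 41 arrays (points) for the brighter HSPA1A and HSPA5 probes and the HSP90AA1 probe, in the 8 groups; black lines and bars give the mean ± SD over arrays. HSPA1A is lowest in the 2 male control groups, where the brighter HSPA5 probe is above 0 on all 9 arrays.

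HSPA5 followed another order. On the brighter probe all 9 male control arrays lay above the pool, at 0.12, 0.15, 0.22, 0.32 and 0.55 on the left and 0.11, 0.12, 0.35 and 0.36 on the right, while on the dimmer probe right replicate 1 was at -0.05 and the other 8 were above the pool. In control females the left amygdala gave -0.77, -0.51, -0.22, 0.05 and 0.08 and the right -0.84, -0.14, -0.09, 0.04 and 0.33. On the left every female control array was below every male control array, and on the right the ranges overlapped. The share of all probes separated in this way is not given here. In the control left amygdala HSPA5 was not called on either probe (limma adjusted p = 0.0822 and 0.0603), where 5.11% of all probes were. The means were 0.26 ± 0.15 (SD, n = 9 arrays) in control males and -0.21 ± 0.38 (SD, n = 10 arrays) in control females, so the male controls were also the least spread of the 4 combinations of sex and treatment.

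In treated males HSPA5 ran from -0.56 to 0.19 on the left with a median of -0.38, and from -0.22 to 0.43 on the right with a median of 0.02. In treated females the left gave -0.58, -0.27, -0.09, -0.06 and 0.38 and the right -0.63, -0.26, -0.02, 0.16 and 0.22. The means were -0.07 ± 0.34 (SD, n = 12 arrays) in treated males and -0.11 ± 0.33 (SD, n = 10 arrays) in treated females. The order of the 8 group means went from male control left (0.27) and right (0.23) to male GnRHa left (-0.25) and female control left (-0.27), and again none of the 7 steps between neighbours exceeded the larger SD. On the dimmer probe male control left was also highest (0.34), but male GnRHa right (0.111) stood above male control right (0.105). Female GnRHa left was at 0.10 on it and female GnRHa right was lowest (-0.33). Adjusted for dye, male control right was highest (0.32 on the brighter and 0.26 on the dimmer probe) and female control left lowest (-0.36 and -0.38).

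HSP90AA1 ranged from -0.52 to 1.33. It was highest in the right amygdala of control females, at -0.30, 0.42, 0.66, 0.70 and 1.33, and their left amygdala gave -0.03, 0.07, 0.44, 0.46 and 0.49. Control males gave -0.52, -0.21, -0.10, -0.06 and 0.10 on the left and -0.12, 0.16, 0.18 and 0.28 on the right. The means were 0.42 ± 0.45 (SD, n = 10 arrays) in control females, 0.24 ± 0.27 (SD, n = 10 arrays) in treated females, 0.03 ± 0.18 (SD, n = 12 arrays) in treated males and -0.03 ± 0.24 (SD, n = 9 arrays) in control males. The ranges of control females and control males overlapped, with 7 of the 10 female arrays above every male array. For this count, too, no share over all probes is given.

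The probes of a gene gave similar but not equal values. Over the 41 arrays the brighter and the dimmer probe correlated with r = 0.93 for HSPA1A and r = 0.89 for HSPA5, as a description of values read from the same RNA on the same arrays. They differed by a median of 0.16 for HSPA1A and 0.09 for HSPA5, and had the same sign on 36 and 33 of the 41 arrays. The dimmer HSPA1A probe had means of 0.46 ± 0.56 (SD, n = 10 arrays) in control females and -0.41 ± 0.42 (SD, n = 9 arrays) in control males, and the dimmer HSPA5 probe had -0.24 ± 0.33 and 0.23 ± 0.19 in the same groups.

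The first comparison was between the sexes among untreated animals. HSPA1A was higher in control females than in control males by 0.94 ± 0.23 (fitted log2 difference ± SE), which is 1.92-fold, and passed the threshold (limma adjusted p = 0.0371). The dimmer HSPA1A probe differed by 0.85 ± 0.23 and did not pass (limma adjusted p = 0.0560). HSPA5 had a log2 difference of -0.47 ± 0.15 on the brighter probe (limma adjusted p = 0.111) and -0.48 ± 0.15 on the dimmer one (limma adjusted p = 0.0938), and HSP90AA1 had one of 0.43 ± 0.14 (limma adjusted p = 0.129). Thus 1 of the 5 heat shock probes was called, where 1.04% of all probes were called (134 of 12930). Unadjusted p-values below 0.05 were found for all 5 probes and for 15.0% of all probes, and the probes of a gene share their RNA and their arrays.

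The call of HSPA1A depended on single arrays. Of the fits that left out 1 of the 19 control arrays, 9 kept it past the threshold and its log2 difference stayed between 0.84 and 1.07. It was lost (limma adjusted p) without male control left replicate 3 (0.0834) or 4 (0.106) and without male control right replicate 1 (0.0703), 2 (0.0768) or 3 (0.0904). Among the female controls it was lost without left replicate 3 (0.0507) or 6 (0.0840) and without right replicate 1 (0.0551), 2 (0.0843) or 3 (0.0528). With the twin pair as a random block the difference was 0.91 (limma adjusted p = 0.0372). With all 56 columns as labelled it was 0.69 (limma adjusted p = 0.223), and without the 3 turned columns 0.99 (limma adjusted p = 0.0420). Both arrays of female control replicate 4, which come from 1 animal, were outlying on the first principal component, and without them the difference was 1.03 (limma adjusted p = 0.0192), with 3 of the 5 heat shock probes called. These were both HSPA1A probes and HSP90AA1, at 0.55 (limma adjusted p = 0.0192). HSPA5 shrank to -0.33 on the brighter probe (limma adjusted p = 0.211) and -0.36 on the dimmer one (limma adjusted p = 0.175).

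The sides and the dyes were linked in this design, since, with the dye of the turned arrays reversed, 18 of the 21 left arrays carried the sample in Cy3 and 18 of the 20 right arrays in Cy5. Within the arrays of Cy3, control females minus control males was 0.99 for HSPA1A (5 against 4 arrays, two-sided exact permutation p = 0.0635, 0.236 adjusted over 40 such tests). Within those of Cy5 it was 0.91 (5 against 5 arrays, the male ones from 4 animals, exact permutation p = 0.0476, 0.236 adjusted). For HSPA5 it was -0.59 within Cy3 (exact permutation p = 0.0238) and -0.35 within Cy5 (exact permutation p = 0.0714), again 0.236 and 0.238 after adjustment, so each gene had the same sign in both dyes. The smallest p these arrays allow is 0.00794, so that no single test could have passed the adjustment over 40, and the p within Cy5 treats the 2 arrays of 1 male as separate. Averaged per animal, HSPA1A ran from -0.11 to 1.23 with a median of 0.64 in the 7 control females and from -1.22 to 0.39 with a median of -0.27 in the 6 control males. The difference of 1.02 between animals had a two-sided exact permutation p of 0.0122, or 0.0612 adjusted over 20 tests of animal means. HSP90AA1 (0.47) and the dimmer HSPA1A (0.98) and HSPA5 (-0.44) probes had the same adjusted permutation p of 0.0612. The brighter HSPA5 probe (-0.41) had one of 0.113. Several of these animals had a single usable side, so the animal means also mix the sides.

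Among treated animals the sexes were closer. HSPA1A differed by 0.25 ± 0.21 (limma adjusted p = 0.842), HSPA5 by -0.05 ± 0.14 (limma adjusted p = 0.957) and HSP90AA1 by 0.22 ± 0.13 (limma adjusted p = 0.730). None of the 5 heat shock probes was called, where 0.155% of all probes were. Whether the sex difference of the controls differed from that of the treated animals is the same test as the interaction of sex and treatment. It gave -0.69 ± 0.31 for HSPA1A (limma adjusted p = 0.610), 0.42 ± 0.20 for HSPA5 (limma adjusted p = 0.649) and -0.20 ± 0.20 for HSP90AA1 (limma adjusted p = 0.838). No heat shock probe was called in it, and the share over all probes was 0%. At an unadjusted p below 0.05, 4 of the 5 probes and 7.70% of all probes (996) passed, so a smaller sex difference after treatment was not shown by this test.

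**Figure D2:**
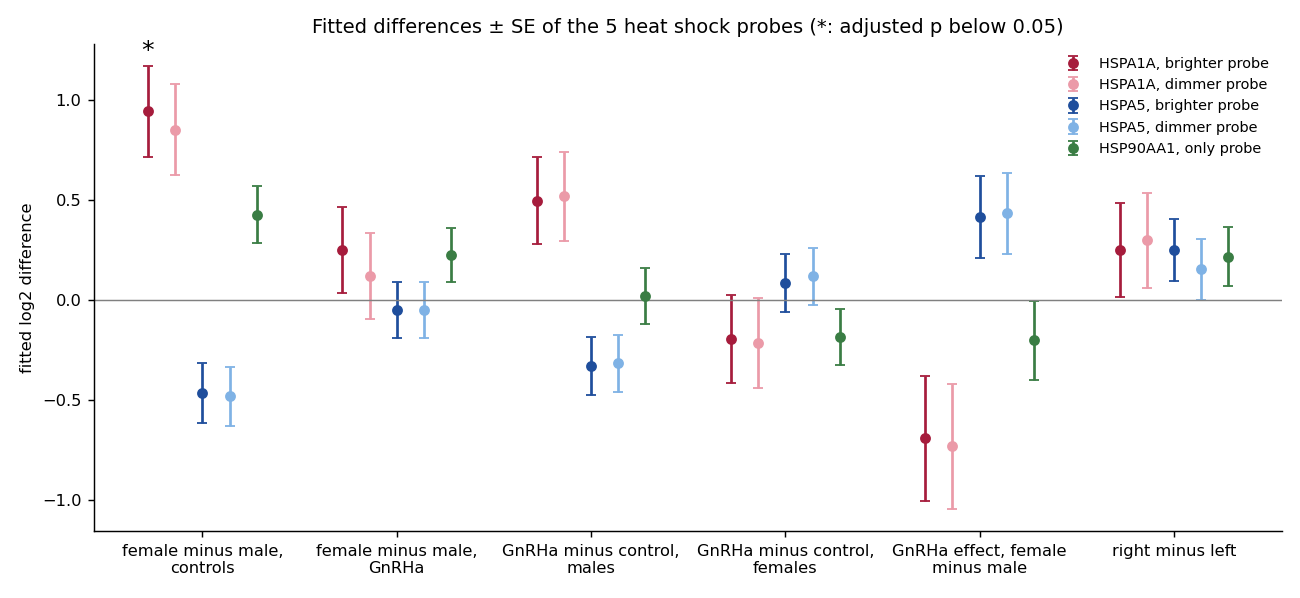
Fitted log2 difference ± SE (limma) of the 5 heat shock probes in the 6 comparisons named on the x axis. The probes of a gene lie close together, and the brighter HSPA1A probe in controls (0.94) is the only value with an adjusted p below 0.05.

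The second comparison was between treated and untreated animals of the same sex. In males HSPA1A had a log2 difference of 0.50 ± 0.22 (limma adjusted p = 0.356) between GnRHa and control animals, and HSPA5 one of -0.33 ± 0.14 (limma adjusted p = 0.348). The dimmer probes gave 0.52 ± 0.22 and -0.32 ± 0.14, and HSP90AA1 gave 0.02 ± 0.14. No heat shock probe was called, and the share of all probes called was 0%. Unadjusted p-values below 0.05 were found for 4 of the 5 heat shock probes and 11.7% of all probes (1519). This comparison and the sex difference in controls share the male control arrays. With all 56 columns as labelled the HSPA5 value in males was 0.04, of the opposite sign.

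In females HSPA1A had a log2 difference of -0.20 ± 0.22, HSPA5 one of 0.08 ± 0.15 and HSP90AA1 one of -0.18 ± 0.14 between GnRHa and control animals, each with a limma adjusted p of 1.00. No heat shock probe was called, the share over all probes was 0%, and an unadjusted p below 0.05 was found for none of the 5 and for 480 of all probes. Within each side the picture was no clearer. None of the 5 probes was called for the GnRHa effect in the male left (0.302% of all probes called), the male right (0.0309%), the female left (0%) or the female right (0%) amygdala. The same was true for the sex difference in the control left (5.11%), control right (0.0773%), GnRHa left (2.20%) and GnRHa right (0.0309%) amygdala, and for the interaction of GnRHa and side in males (0.201%) and females (0.00773%).

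The twin design allowed the treated animal to be set against its own twin, in 5 male and 5 female pairs with usable arrays of both. For HSPA1A the treated male minus its twin gave -0.31, -0.03, 0.55, 0.89 and 0.96, so that 3 of 5 treated males were higher. The treated female minus its twin gave -0.94, -0.34, 0.01, 0.16 and 0.66, again 3 of 5 higher. For HSPA5 the male pairs gave -0.65, -0.54, -0.17, 0.10 and 0.14, with 3 of 5 treated males lower, and the female pairs gave -0.41, -0.03, 0.18, 0.36 and 0.88. The mean of the male pairs was 0.41 ± 0.56 (SD, n = 5 pairs) for HSPA1A, with a two-sided exact sign-flip permutation p of 0.25, and -0.22 ± 0.36 (SD, n = 5 pairs) for HSPA5, with an exact p of 0.313 (each 0.625 adjusted over 10 such tests). With 5 pairs this test cannot go below 0.0625, and both signs occurred among the pairs of each gene in each sex. In several pairs of each sex a twin had only a single usable side and the other twin had both. The twin differences of those pairs therefore also hold any difference between the sides. The male pair with both sides of both twins gave -0.31 for HSPA1A and -0.65 for HSPA5.

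**Figure D3:**
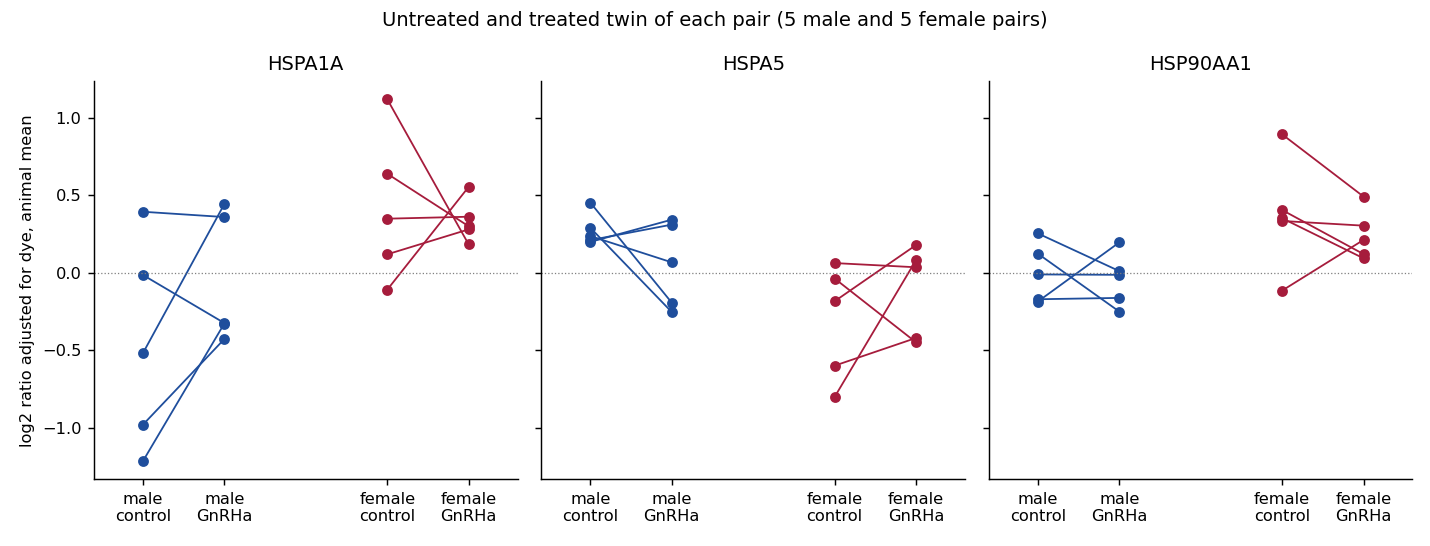
Dye-adjusted log2 ratio of each animal, averaged over its usable sides, for the untreated and the treated twin of 5 male (blue) and 5 female (red) pairs, joined by lines. The lines of HSPA1A and HSPA5 run in both directions in each sex, and the untreated males of HSPA5 lie close together.

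The third comparison was between the sides. Right minus left was 0.25 ± 0.23 for HSPA1A (limma adjusted p = 0.698), 0.25 ± 0.15 for HSPA5 (limma adjusted p = 0.519) and 0.22 ± 0.15 for HSP90AA1 (limma adjusted p = 0.565). None of the 5 probes was called, where 0.224% of all probes were. These values rest on the dye term, because side and dye nearly coincided: without it they were 0.07 for HSPA1A and 0.11 for HSPA5. The fitted difference of Cy5 over Cy3 was -0.24 for HSPA1A and -0.17 for HSPA5, about as large as the difference between the sides.

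The sides of an animal agreed past the threshold for HSPA5 and not for HSPA1A or HSP90AA1, and the difference between the genes was not tested. The share of all probes whose sides agreed as well is not given here. In 16 animals with both sides, after the dye and the group means were subtracted, the left and right values of HSPA5 correlated with r = 0.67 (two-sided permutation p = 0.0043, adjusted over the 5 probes 0.0215) and rho = 0.71 (permutation p = 0.00294, adjusted 0.0147). Both sides deviated the same way in 13 of the 16 animals. Female control replicate 4, the animal outlying on the first principal component, had the lowest dye-adjusted HSPA5 value on the left (-0.85) and on the right (-0.75). The agreement without this animal alone was not tested. The permutations of the sides treat these animals as independent, though both twins of some pairs are among them. The dimmer HSPA5 probe gave r = 0.59 (permutation p = 0.0163, adjusted 0.0409) and rho = 0.63 (permutation p = 0.0112, adjusted 0.0279). Without the 2 animals farthest from the median left value r was 0.59 (permutation p = 0.0265, adjusted 0.133) and rho 0.69 (permutation p = 0.00849, adjusted 0.0424), so the Pearson value no longer passed after adjustment. It also did not pass with the columns scaled to a common spread (0.60, adjusted permutation p = 0.0688) or with all 56 columns (0.47, adjusted permutation p = 0.136).

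For HSPA1A the sides correlated with r = 0.42 (two-sided permutation p = 0.0997, adjusted 0.166) and rho = 0.39 (permutation p = 0.136, adjusted 0.227), with the same sign in 11 of 16 animals. Without the 2 farthest animals r was 0.28 (adjusted permutation p = 0.410). The dimmer HSPA1A probe gave r = 0.21 and HSP90AA1 gave r = 0.19 (adjusted permutation p = 0.494 for each). The median distance between the sides of an animal, adjusted for dye, was 0.38 for HSPA1A, 0.26 for HSPA5 and 0.14 for HSP90AA1. The largest was 0.87 for HSPA1A, in the treated male with 0.03 on the left and 0.90 on the right, and 1.05 for HSP90AA1.

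**Figure D4:**
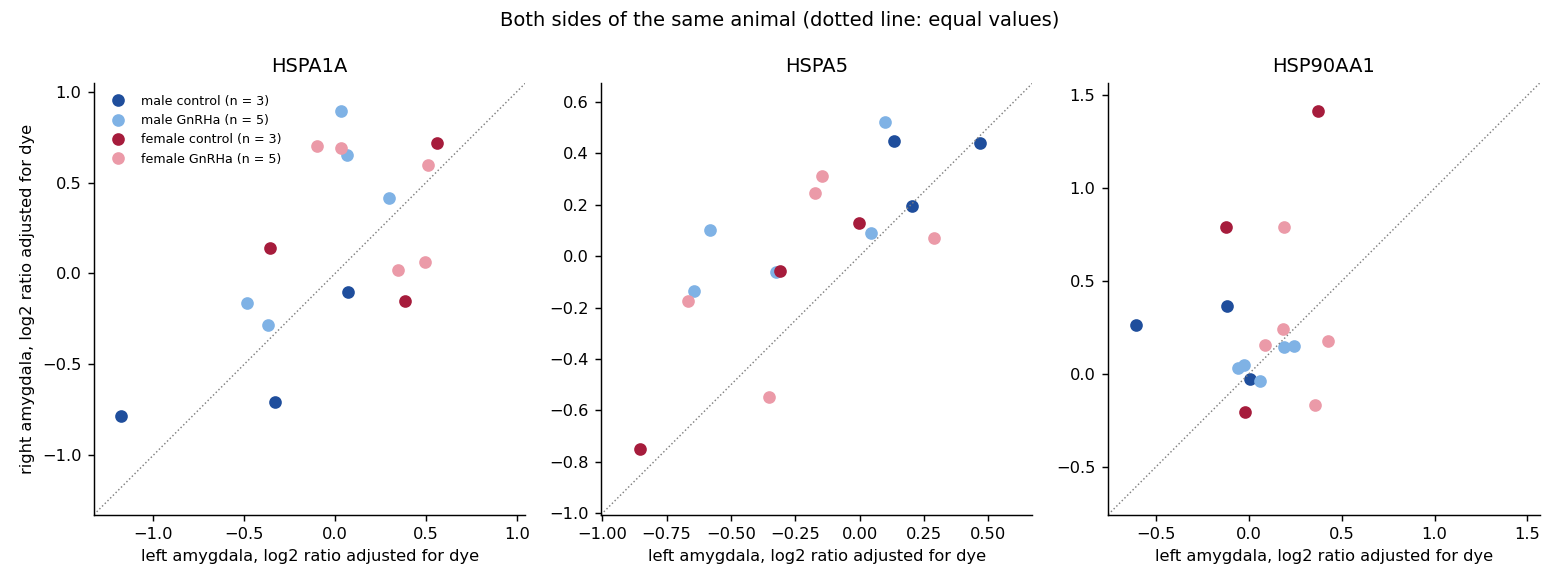
Left against right amygdala of 16 animals, as log2 ratios adjusted for dye, for the 3 heat shock genes; colours give sex and treatment and the dotted line marks equal values. After group means were subtracted, left and right values had r = 0.67 for HSPA5 and r = 0.19 for HSP90AA1.

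The 3 genes did not clearly vary together between animals. Over 25 animals, with group means subtracted, HSPA1A and HSPA5 correlated with r = 0.26 (permutation p = 0.203) and rho = 0.30 (permutation p = 0.151), and HSPA1A and HSP90AA1 with r = 0.28 (permutation p = 0.179) and rho = 0.29 (permutation p = 0.160). Adjusted over the 3 pairs, the permutation p-values of these were 0.203 for each r and 0.216 for each rho. HSPA5 and HSP90AA1 correlated with r = 0.42 (permutation p = 0.0343, adjusted over the 3 pairs 0.103) and rho = 0.26 (permutation p = 0.216). Without the 2 farthest animals that r fell to 0.18, so it rested on those animals. Here, too, the permutations treat twins as independent.

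The named genes whose values were most like those of HSPA1A over the 41 arrays, after dye and group means were subtracted, were SQSTM1 (r = 0.73), CTSB (0.73), PFK-L (0.72), SLC12A4 (0.68) and CTSF (0.67). SQSTM1 is the autophagy receptor p62, CTSB and CTSF are lysosomal cathepsins, PFK-L is a phosphofructokinase of glycolysis and SLC12A4 carries potassium and chloride. Those most like HSPA5 were GRIN1 (0.76), GRIA3 (0.76), GLUD1 (0.76), TCP1 (0.71) and GRIA2 (0.70). GRIN1, GRIA2 and GRIA3 are subunits of glutamate receptors, GLUD1 is glutamate dehydrogenase and TCP1 is a subunit of the cytosolic chaperonin that folds actin and tubulin. The correlations were taken over 458 other named genes with a value on every array, of which 95% lay below 0.52 for HSPA1A and below 0.59 for HSPA5. These values are descriptions over arrays that share animals.

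Lists of stress genes, which hold the heat shock genes themselves, gave a mixed picture among untreated animals. Of 48 genes listed for the cytosolic heat shock response 4 had a named probe, and 3 of these were higher in females and 1 lower, with 1 called (HSPA1A). Their median difference, into which HSPA1A and HSP90AA1 enter, was 0.38, against 0.00 over all probes, of which 49.8% were higher in females. Besides HSPA1A and HSP90AA1 these were the small heat shock proteins CRYAB, at 0.34 ± 0.22 (limma adjusted p = 0.492), and CRYAA, at -0.10 ± 0.15 (limma adjusted p = 0.826). Of 31 genes of endoplasmic reticulum stress 6 were measured, 3 higher and 3 lower with none called, and their median was -0.20. The lowest p-values among them were those of HSPA5 (-0.47) and the sensor ATF6, at -0.65 ± 0.40 (limma adjusted p = 0.470).

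TXNIP, which binds and inhibits thioredoxin and responds to glucocorticoids, was higher in control females by 0.65 ± 0.17 (limma adjusted p = 0.0492). It was the 1 called gene among 5 measured of the glucocorticoid list, of which 2 were higher and 3 lower (median -0.06), and among 4 of the oxidative stress list, of which 2 were higher and 2 lower (median 0.30). SQSTM1, the gene most like HSPA1A over the arrays, stood at 0.61 ± 0.17 (limma adjusted p = 0.0624). Of 6 immediate early genes, which respond to neuronal activity and to handling of tissue, 4 were higher and 2 lower with none called (median 0.08). The lowest p-values were those of JUN, at -0.22 ± 0.10 (limma adjusted p = 0.262), and JUND, at 0.30 ± 0.18 (limma adjusted p = 0.430). Of 4 proteasome and ubiquitin genes 3 were higher and 1 lower with none called (median 0.11), led by UBA1, the enzyme that activates ubiquitin, at 0.29 ± 0.15, and the conjugating enzyme UBE2D2, at 0.14 ± 0.07.

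Markers of cell types were read beside these values. Of 5 endothelial and mural genes 1 was higher and 4 lower in control females (median -0.17), with the endothelin receptor EDNRB, which astrocytes also express, called at -0.90 ± 0.19 (limma adjusted p = 0.0272). Of 5 astrocyte genes 4 were higher (median 0.19, lowest p-values for GFAP, at 0.41 ± 0.22, and GJA1, at 0.30 ± 0.18), and all 5 microglia and macrophage genes were higher (median 0.11, ITGAM at 0.96 ± 0.52 and TYROBP at 0.10 ± 0.09), with none called in either list. Of 3 blood genes 1 was higher and 2 lower (median -0.18, CD3E at 0.28 ± 0.28 and HBB at -0.28 ± 0.55), with none called. The neuron and oligodendrocyte lists, of 16 and 10 genes, had no named probe. The part of these cell types in the HSPA1A difference was not tested. The share of probes without a value was 5.15 to 17.6% in female and 4.49 to 19.6% in male control arrays.

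**Figure D5:**
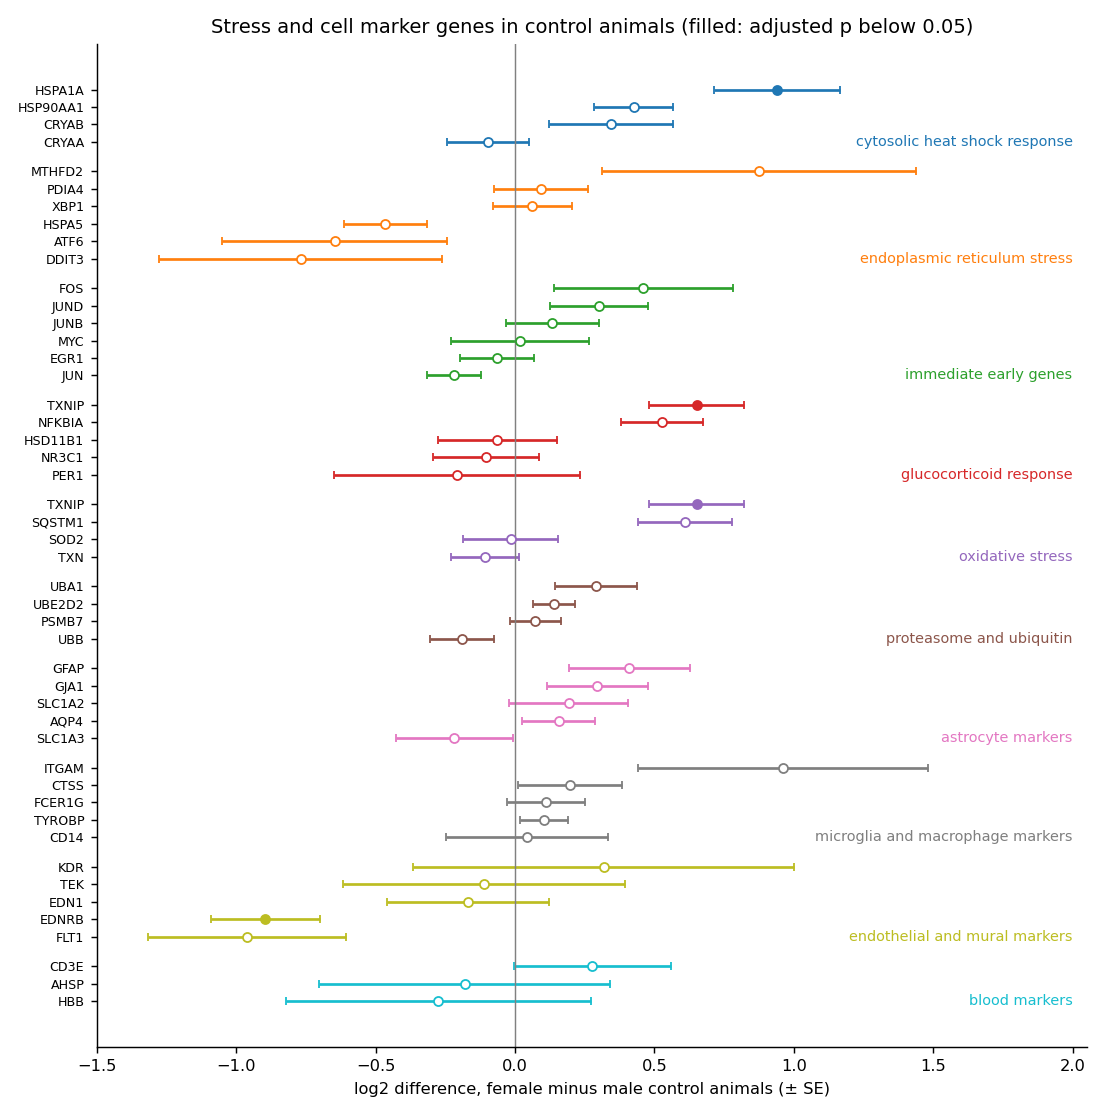
Fitted log2 difference ± SE (limma), female minus male control animals, of the measured genes of 10 lists named on the right; filled points have an adjusted p below 0.05. HSPA1A (0.94), TXNIP (0.65, in both lists that hold it) and EDNRB (-0.90) are filled.

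Between treated and untreated males no gene of the lists was called, and the median over all probes was 0.00. The 4 measured cytosolic heat shock genes had a median of 0.08, with HSPA1A (0.50) and CRYAA (0.14 ± 0.14) at the lowest p-values, and the 6 genes of endoplasmic reticulum stress one of -0.23. In that list HSPA5 (-0.33) was followed by MTHFD2, a mitochondrial enzyme of folate metabolism, at 1.22 ± 0.54 (limma adjusted p = 0.362). NFKBIA, an inhibitor of NF-kB, stood at 0.36 ± 0.14 and HSD11B1, which regenerates cortisol, at 0.28 ± 0.21 in the glucocorticoid list (median 0.19). The oxidative stress list (median 0.09) was led by SQSTM1, at 0.30 ± 0.16, and TXNIP, at 0.19 ± 0.16, and the proteasome and ubiquitin list (median 0.02) by UBB, at -0.22 ± 0.11, and UBE2D2, at 0.08 ± 0.07. Of the immediate early genes (median -0.01) JUN was at -0.17 ± 0.09 and EGR1 at 0.20 ± 0.13. Among the cell markers EDNRB was at -0.63 ± 0.19 (limma adjusted p = 0.15), TEK at 0.44 ± 0.41, TYROBP at 0.26 ± 0.08 (limma adjusted p = 0.172), ITGAM at 1.49 ± 0.54, SLC1A3 at -0.28 ± 0.20, AQP4 at -0.13 ± 0.13, AHSP at 0.45 ± 0.51 and CD3E at 0.17 ± 0.27. None of these passed the threshold.

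In the authors' deposited table, each group was set against the pool. There the brighter HSPA1A probe had log2 fold changes between -0.20 and 0.24 over the 8 groups, with the sign of the mean over the arrays used here in all 8, and the lowest adjusted p-value in the authors' deposited table was 0.284. The brighter HSPA5 probe lay between -0.15 and 0.12 in the authors' deposited table, also with the sign of the group mean in all 8 groups, with a lowest adjusted p-value of 0.588. HSP90AA1 and the dimmer HSPA1A and HSPA5 probes each had the sign of their group mean in 7 of the 8. The lowest adjusted p-values of these dimmer probes in the authors' deposited table were 0.162 and 0.127. Those folds come from the same series and may rest on arrays left out here. Over all rows they correlated with the mean of a group's columns as deposited at r = 0.48 to 0.70. For the brighter HSPA1A and HSPA5 probes each fold lay nearer to 0 than the group mean over the 41 arrays.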

How the data were processed

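The deposited log2 ratios of 56 2-colour arrays, read with Agilent Feature Extraction 9.1 per the submitters' processing notes, were used as the authors made them. Background correction, within-array normalization and direction are not given in the sources used here, and column medians lay between -0.02 and 0.03. The direction, sample over pool, was read from 2 sex-specific transcripts known from earlier results. One was at -3.51 ± 0.76 (SD, n = 16) in females and 0.85 ± 0.27 (n = 21) in males, as a pool of both sexes allows. The other was less far apart, at 0.56 ± 0.39 (SD, n = 20) in females and -1.24 ± 0.32 (SD, n = 21) in males. For each group against the pool there are also the authors' deposited p-values and log2 fold changes. Columns with an absolute spike-in slope under 0.5 were left out, negative ones were turned and their dye reversed, and repeated spots were averaged. Gene names came from the files and RefSeq tables. limma 3.58.1 fitted group means, dye and animal (duplicateCorrelation, within-animal correlation 0.15), with Benjamini-Hochberg adjustment over probes with at least 2 values in each group. Twin pairs, from the labels, were a block in an alternative, random or, except for differences between the sexes, fixed. Animals were told apart by twin pair and treatment. Correlations used 100000 permutations, and other tests enumerated all splits. Scripts were tested on simulated data. Named were all members, the 5 genes most like HSPA1A and the 5 most like HSPA5, and from each list the called genes or else the 2 of lowest p. CRYAB and CRYAA, which complete the cytosolic list, were named after their values were seen. The members and lists were chosen with earlier results of these data known. The spike-in rule, within-dye values, animal means and the principal component alternative were chosen after seeing data. The number of arrays limits the precision.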

Additional observations from a re-analysis of the deposited data

How the results depend on the processing

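Of the results in the 6 main comparisons, the call of HSPA1A between control females and males (0.94) was the one that passed the threshold, and its direction held under every alternative run. It no longer passed with all 56 columns as labelled (0.69) or with columns scaled to a common spread (0.83). It passed with the twin pair as a random replicate block (0.91, limma adjusted p = 0.0372). Over animal means (1.02) the exact permutation p was 0.0122, or 0.0612 adjusted over 20 tests, which is not the adjustment over all probes. HSP90AA1 and the dimmer HSPA1A and HSPA5 probes had that same adjusted value. The twins of a pair share their sex, so with the pair as a fixed replicate block no difference between the sexes could be estimated. The values within Cy3 (0.99) and Cy5 (0.91) come from tests too small to pass after adjustment and say nothing of stability. They, the animal means and the alternative without arrays far out on the first principal component were chosen after seeing the data. The count of called heat shock probes in that comparison, 1, became 0 with all 56 columns and with scaled columns. It became 2 with no block for the animal, 2 over probes with a value on every array, and 3 without the arrays far out on the first principal component. Leaving out 1 array at a time gave 0 to 3 called probes and 0.84 to 1.07 for HSPA1A. The calls over all probes in that comparison, 134, ranged from 2 (56 columns) to 255 (without the arrays far out), and from 9 to 331 without 1 array. In GnRHa males none of all probes was called, but 62 were with the random twin pair block, 54 with no block and 104 without the arrays far out. Without 1 array the calls in GnRHa males ranged from 0 to 147. Between treated sexes the 20 calls ranged from 3 to 60 over the other alternatives and from 3 to 62 without 1 array. Between sides the 29 ranged from 0 to 557 (no dye term), and from 3 to 58 without 1 array.

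With all 56 columns the sign turned for HSPA5 in GnRHa males (0.038), HSP90AA1 in GnRHa females (0.066) and in the interaction (0.029), HSPA1A right against left (-0.054) and the dimmer HSPA5 probe in GnRHa females (-0.12). With the fixed twin pair block it turned for HSP90AA1 in GnRHa males (-0.039), which was also at -0.0001 with scaled columns. Without the arrays far out it turned for HSPA5 in GnRHa females on both probes (-0.056 and -0.0016), and with no dye term for the dimmer HSPA5 probe right against left (-0.087). None of these passed a threshold, and the cause was not tested. Leaving out 1 array at a time, HSPA5 between treated sexes ran from -0.11 to 0.011 (dimmer probe -0.12 to 0.029) and HSP90AA1 in GnRHa males from -0.032 to 0.050. The twin pair block, where it could be fitted, changed no call among the heat shock probes, and the genes of the other lists were not rerun under these alternatives.

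The left-right agreement of HSPA5 (r = 0.67) no longer passed with all 56 columns (0.47), with scaled columns (0.60) or without the 2 farthest animals (0.59), and that of HSPA1A (0.42) passed where group means were not subtracted (0.59, adjusted permutation p = 0.0366). There its rank correlation (rho = 0.45, adjusted permutation p = 0.139) and its dimmer probe (r = 0.40, adjusted permutation p = 0.16) did not pass. Without that subtraction the correlation also holds the differences between the groups.

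Single-channel signals were not analysed here, so no spot can be called above background. Groups of 4 to 6 arrays limit what these comparisons can show.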
